A study of Mus musculus with 20 samples.

Results

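Matrix metalloproteinases and the tissue inhibitors that block them were followed in 2 muscles of mdx and control mice, the leg muscle and the extraocular muscle (EOM). The 8 genes considered were Mmp2, Mmp3, Mmp9, Mmp12, Mmp14, Timp1, Timp2 and Timp3, and a probe set was taken as a member when its platform gene symbol was one of them. This rule found 9 of the 12654 probe sets on the array, for 7 of the 8 genes. No probe set used here carried the symbol Timp3, which was not analysed here. Of the 9 probe sets, 6 were bright enough to test, for 5 genes.

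Each of the 4 groups held 5 arrays of total RNA from mice aged 8 weeks: leg muscle of mdx mice, leg muscle of control mice, EOM of mdx mice and EOM of control mice. The labels name the control leg tissue as gastrocnemius and soleus, and the mdx tissue only as leg muscle. Control mice are called wild type in the series title and no strain is given. The mdx mouse carries a mutation in the dystrophin gene Dmd in every cell and is the usual mouse model of Duchenne muscular dystrophy, a disease in which limb muscle degenerates while the muscles that move the eye are largely spared. The comparisons are of mdx with control mice in an affected and a spared muscle. The labels do not say whether arrays of a group came from separate animals, so the p-values measure the spread between these arrays, which may in part be technical. Within each muscle the mdx and control arrays carry different description labels, and any batch that goes with those labels cannot be told apart from genotype. Nor can any difference in which leg muscles were taken. Below, mdx effect means the difference between mdx and control arrays.

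Matrix metalloproteinases are zinc-dependent enzymes that cut collagens, elastin, laminins and other proteins of the extracellular matrix, and most are made as inactive precursors. The tissue inhibitors of metalloproteinases (TIMPs) bind the active enzyme and block it, and the balance of enzyme and inhibitor governs how matrix is taken down and rebuilt in injured muscle. An array measures the transcript and not the activity of these enzymes.

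Mmp3 and Mmp12 lie 85360 bases apart in a cluster of metalloproteinase genes on chromosome 9, where Mmp12 spans chr9:7344397-7360461 and Mmp3 chr9:7445822-7455975 (GRCm38.p6). Their upstream sequences are shown because these 2 genes had the widest differences between mdx and control leg muscle among the members as processed here. With a floor of 100 in place of 50, the log2 difference of Mmp3 was 2.13, below that of Timp1 at 2.49. RefSeq windows from 250 bases before to 50 bases after the start were at hand for 6 of the 8 members, namely Mmp3, Mmp12, Mmp14, Timp1, Timp2 and Timp3. The first 2 sequences are the 100 bases before the start of Mmp3 and before the second of 2 annotated starts of Mmp12 (GRCm38.p6, plus strand, chr9:7445722-7445821 and chr9:7347274-7347373). The third is a stretch of 30 bases from just after the start of Timp1 (plus strand, chrX:20870181-20870210). Capitals mark TGAGTCA, the letters of the classical AP-1 element, the variant TGAGTNA, and TATAAA.
Mmp3: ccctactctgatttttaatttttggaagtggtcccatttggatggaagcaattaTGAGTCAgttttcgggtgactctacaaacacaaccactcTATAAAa
Mmp12: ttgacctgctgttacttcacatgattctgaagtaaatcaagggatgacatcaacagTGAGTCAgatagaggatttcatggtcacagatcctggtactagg
Timp1: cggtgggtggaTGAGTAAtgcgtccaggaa

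TGAGTCA began 46 bases before the Mmp3 start and 44 bases before the second Mmp12 start, and it was not found in the window of the first Mmp12 start. It was also not found in the windows of Mmp14, Timp1, Timp2 or Timp3. The Timp1 stretch is shown because it holds the variant, beginning at base 27 counted from the start. The second Mmp12 window holds the variant once more, 123 bases before the start, and TATAAA from base 5 of the transcript, both outside the printed stretch. Searched on both strands, TGAGTCA was present in 5.20% of all 32851 RefSeq windows of 300 bases. The looser TGAGTNA, which includes TGAGTCA, was present in 14.7%, and TATAAA in 13.6%. The motifs were chosen with the sequences in view, and a match describes letters, not binding.

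After each array was scaled to the same trimmed mean, 47.2 to 52.0% of probe sets reached a signal of 200 on each. The scaling sets the overall signal, so this share does not show that the arrays were alike before it. Dmd itself averaged 77.5 ± 32.3 in mdx leg muscle and 149 ± 40.2 in control leg muscle (SD, n = 5 each), a log2 difference of -0.92 (adjusted p = 0.0323). It averaged 119 ± 31.7 in mdx EOM and 268 ± 47.4 in control EOM, a log2 difference of -1.18 that missed the threshold (adjusted p = 0.233). Skeletal fibre markers were detected in all 4 groups, except Tnnc2, which lay under a signal of 50 on every array. Control leg array 4 stood apart, with Bpifa2, a salivary gland transcript, at 8892 against 78.1 to 828 on the other control leg arrays, and Myl2, a slow-fibre myosin light chain, at 45.2 against 8608 to 20216. On array 4 the homeobox gene Hoxd8 gave 94.9, against 737 to 1416 on the other control leg arrays. Array 4 was kept in the control leg group for the main results. Control leg array 1 matched its group least well, with a mean r of 0.927 to the other 4 arrays, against 0.935 to 0.957 for all other arrays. Member calls that changed without these 2 arrays are given beside the results, and so are list counts that changed. The beta-actin 3' to 5' log2 ratio, a sign of RNA quality, was -1.86 ± 1.25 in mdx leg muscle and 0.50 ± 0.37 in control leg muscle (p = 0.00794 in a two-sided exact permutation test, where 5 against 5 arrays allow no lower p, and 0.0476 after Benjamini-Hochberg adjustment over 6 measures), while the Gapdh ratio was -2.50 ± 0.14 and -2.48 ± 0.84 (exact permutation p = 0.929). A negative log2 ratio means more 5' than 3' signal. In EOM the beta-actin ratio was 0.17 ± 0.35 in mdx and 0.08 ± 0.20 in control mice (exact permutation p = 0.651). The Gapdh ratio there was -1.27 ± 0.62 and -2.35 ± 0.84 (exact permutation p = 0.0714, and 0.214 after adjustment). The part of RNA quality in the results of either muscle was not tested.

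In leg muscle, Mmp3, Mmp12, Timp1 and Timp2 were higher in mdx than in control mice, and Mmp14 did not pass the test. Both Mmp12 probe sets were included, so 5 of the 6 tested member probe sets were called higher and 0 lower (limma, adjusted p under 0.05). Over all 7204 tested probe sets, 10.7% were called higher and 7.15% lower. The members were chosen with earlier results of these data known, so these shares are no test of the members as a set. A probe set is tested only if it reaches 200 on at least 5 arrays, and the Mmp12 probe sets did so on 10 arrays (95339_r_at) and 7 arrays (95338_s_at), all 5 mdx leg arrays among them. Without the mdx leg arrays, in which it was high, 95338_s_at would not have been tested. In EOM, 0 of the 6 passed the test, where 6 of 7204 probe sets (0.0833%) were called and 369 had an unadjusted p under 0.05. The 2 genotype comparisons use separate arrays. Their difference was tested in the same fit. For 4 of the 6 member probe sets, those of Mmp3, Mmp12 and Timp1, the mdx minus control difference was called larger in leg muscle than in EOM. This was so for 4.93% of all probe sets. The median log2 difference of all tested probe sets was -0.06 in leg muscle and -0.02 in EOM.

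**Figure D1:**
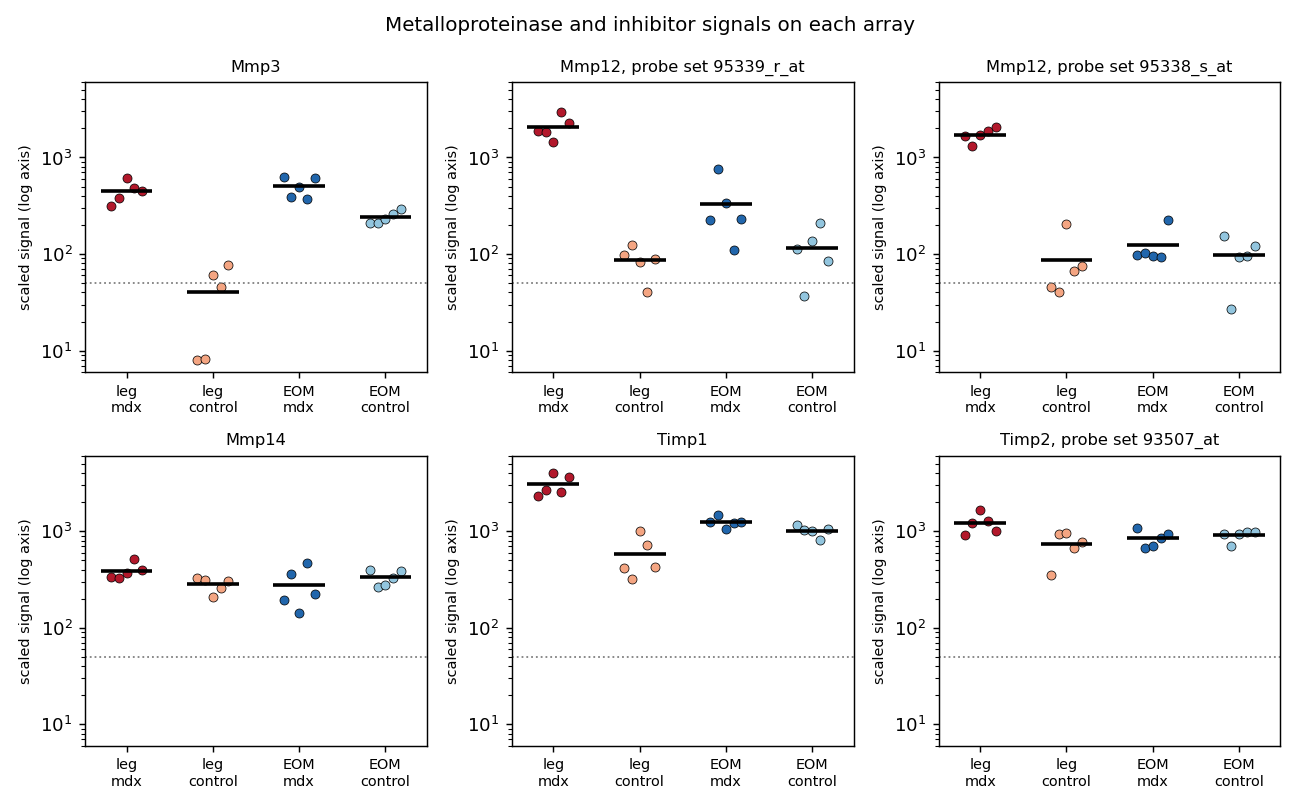
Scaled signal (log axis) of the 6 tested member probe sets, 1 point per array and a bar at the mean of each group's 5 arrays, with a dotted line at the floor of 50. For Mmp3, both Mmp12 probe sets and Timp1 the mdx leg arrays lie above all control leg arrays, and for Mmp3 the mdx EOM arrays also lie above all control EOM arrays.

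Mmp12 encodes macrophage elastase, which cuts elastin and is made mainly by macrophages. Its probe set 95339_r_at gave 1895, 1838, 1451, 2945 and 2286 in mdx leg muscle, against 98.9, 124, 83.0, 40.0 and 88.7 in control leg muscle. The lowest mdx array, at 1451, lay far above the highest control array, at 124. The log2 difference was 4.57 (95% confidence interval 3.72 to 5.42), at least 23.7-fold because 1 control array lay under the floor of 50, with an adjusted p of 3.60e-08. The second probe set, 95338_s_at, averaged 1721 ± 280 in mdx leg muscle and 86.3 ± 66.9 in control leg muscle (SD, n = 5 each). Its log2 difference was 4.48 (adjusted p = 1.12e-08), 22.3-fold in geometric means with 2 control arrays set to the floor. Both probe sets gave much the same leg difference. They carry the platform suffixes for relaxed design rules and for probes shared between transcripts, so cross-hybridisation was not tested.

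Mmp12 signals in EOM lay below those of mdx leg muscle in both genotypes. Probe set 95339_r_at gave 225, 765, 334, 111 and 230 in mdx EOM, against 112, 37.1, 138, 209 and 84.5 in control EOM. Array 2 was the highest mdx array, array 4 lay within the control range, and the groups overlapped. The log2 difference of 1.35 (95% confidence interval 0.50 to 2.20) did not pass the test after adjustment (adjusted p = 0.715). Without mdx EOM array 2 it was 0.98 (adjusted p = 0.871). Probe set 95338_s_at averaged 123 ± 57.8 in mdx EOM and 98.5 ± 46.8 in control EOM, a log2 difference of 0.25 (interval -0.50 to 1.01, adjusted p = 0.999), and its highest mdx value, 226, was on array 5 and not on array 2. The mdx effect was larger in leg muscle than in EOM by a log2 difference of 3.22 for 95339_r_at (adjusted p = 0.00122) and 4.23 for 95338_s_at (adjusted p = 1.67e-05).

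Mmp3, stromelysin 1, cuts many matrix proteins and can activate the precursors of other metalloproteinases. Its probe set, 98833_at, gave 312, 385, 613, 480 and 449 in mdx leg muscle, against 8.04, 8.13, 60.2, 46.0 and 77.8 in control leg muscle. Every mdx array was above every control array, and 3 of the 5 control arrays lay under the floor. The log2 difference was 2.95 with a standard error of 0.22 (interval 2.48 to 3.41), at least 7.70-fold (adjusted p = 4.17e-09).

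Mmp3 in EOM gave 626, 391, 500, 373 and 614 in mdx mice, against 208, 209, 231, 262 and 296 in control mice. The 5 mdx arrays again all lay above the 5 control arrays. The log2 difference of 1.03 (interval 0.57 to 1.50, 2.05-fold) had an unadjusted p of 0.000142 and missed the threshold after adjustment in limma (adjusted p = 0.0851). It passed the threshold in 3 of 20 alternatives, and its adjusted p ran between 0.0275 and 0.815 over them. Mmp3 was the 1 member probe set of 6 whose mdx EOM arrays all exceeded the control EOM arrays, a pattern seen in 0.500% of all tested probe sets. In leg muscle the same pattern was seen in 4 of 6 member probe sets and in 8.38% of all. The 4 include 95338_s_at of Mmp12, which passed the filter only through the mdx leg arrays. The mdx effect on Mmp3 was larger in leg muscle by a log2 difference of 1.91 (interval 1.25 to 2.57, adjusted p = 0.000548). Because control leg arrays lay at the floor, the leg effect and this difference depend on the floor, and the difference stayed past the threshold in all 29 alternatives, with log2 values from 1.09 to 2.46.

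The muscles also differed in Mmp3 without the mdx genotype. Control leg muscle averaged 40.0 ± 31.3 and control EOM 241 ± 37.5 (SD, n = 5 each), a log2 difference of -2.08 (adjusted p = 7.21e-07), and the 2 groups did not overlap. In mdx mice the muscles averaged 448 ± 113 in leg and 501 ± 119 in EOM, a log2 difference of -0.16 (interval -0.63 to 0.30, adjusted p = 0.691). In order of level, mdx EOM and mdx leg muscle overlapped, control EOM lay below both, and control leg muscle was lowest. The lowest mdx leg array, at 312, was close to the highest control EOM array, at 296, and those groups were not compared by a test.

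**Figure D2:**
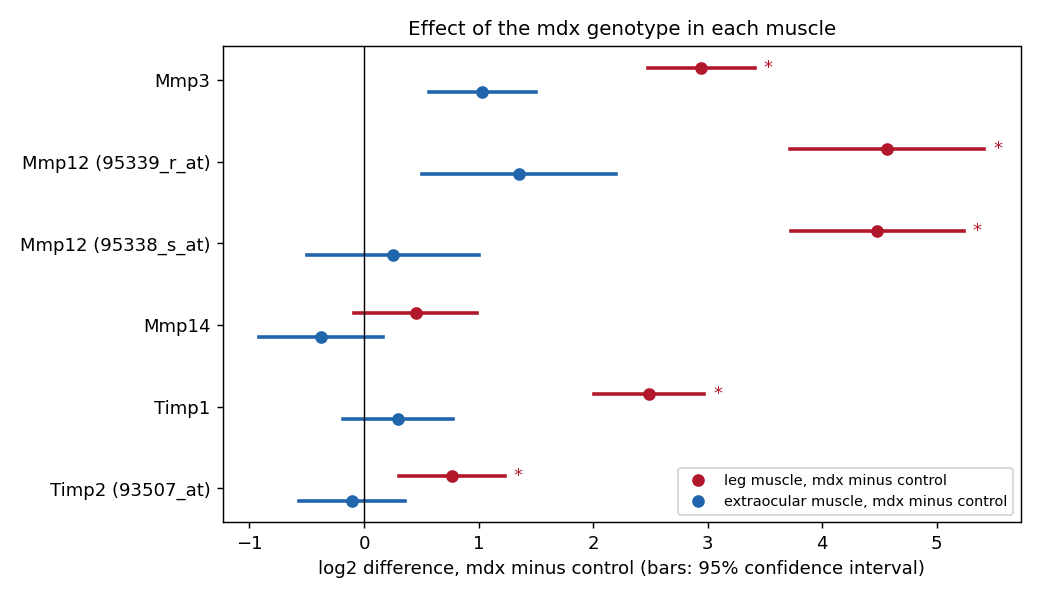
Log2 difference between mdx and control arrays (n = 5 each) for the 6 tested member probe sets, in leg muscle (upper, red) and EOM (lower, blue), with 95% confidence intervals as bars and an asterisk where the adjusted p is under 0.05. All 5 asterisks are in leg muscle, and the 2 intervals of Mmp3, of each Mmp12 probe set and of Timp1 do not overlap.

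Mmp14 encodes a membrane-bound metalloproteinase that cuts collagen and, together with Timp2, activates the gelatinase precursor made from Mmp2. The gene lies at chr14:54431598-54442456 (GRCm38.p6). Its probe set, 93537_at, gave 335, 329, 365, 518 and 392 in mdx leg muscle, against 332, 314, 209, 257 and 306 in control leg muscle. The groups overlapped, since mdx array 2, at 329, lay under control array 1, at 332. The log2 difference was 0.45 (interval -0.09 to 0.99, adjusted p = 0.259). In EOM it averaged 277 ± 133 in mdx mice and 332 ± 60.6 in control mice, a log2 difference of -0.37 (interval -0.91 to 0.16, adjusted p = 0.999). The mdx EOM arrays were the most spread, from 143 to 466. The effect did not differ between muscles past the threshold (log2 0.83, interval 0.07 to 1.59, adjusted p = 0.225).

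The gelatinases Mmp2 and Mmp9, which cut denatured collagen and basement membrane collagen, could not be followed at these signals. They lie at chr8:92827290-92853421 and chr2:164940326-164955850 (GRCm38.p6). Neither probe set, 95663_at for Mmp2 and 99957_at for Mmp9, reached 200 on any array. Mmp2 averaged 47.6 in mdx leg muscle, 68.9 in control leg muscle, 54.2 in mdx EOM and 74.5 in control EOM, with single arrays between 14.3 and 164. Mmp9 averaged 52.3, 46.2, 45.6 and 50.5 in the same order of groups. In the fit without the filter on dim probe sets, read for these 2 probe sets after seeing the data, the leg differences were -0.29 for Mmp2 (adjusted p = 0.690) and 0.10 for Mmp9 (adjusted p = 0.602), most of it at or near the floor. A signal this low does not show that the transcript was absent.

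**Figure D3:**
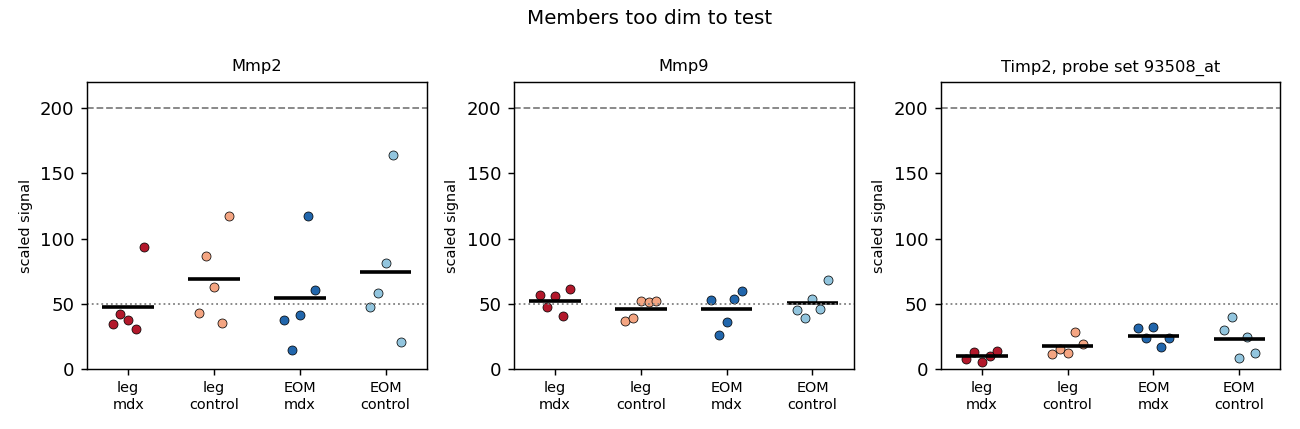
Scaled signal (linear axis) of the 3 member probe sets that were not tested, 1 point per array and a bar at the group mean (n = 5), with a dotted line at the floor of 50 and a dashed line at 200. All arrays lie under 200, and the second Timp2 probe set is under the floor on all 20 arrays.

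Timp1, a secreted inhibitor that binds most soluble metalloproteinases, was the inhibitor with the larger leg difference. The gene lies at chrX:20870166-20874737 (GRCm38.p6). Its probe set, 101464_at, gave 2325, 2684, 4031, 2527 and 3676 in mdx leg muscle, against 417, 317, 1000, 729 and 430 in control leg muscle. The groups did not overlap, and control array 3 was the highest control array. The log2 difference was 2.49 with a standard error of 0.23, a 5.63-fold higher signal (adjusted p = 5.96e-08). In EOM the signals were 1242, 1479, 1046, 1208 and 1237 in mdx mice, against 1167, 1026, 1015, 808 and 1047 in control mice. Mdx array 3 lay within the control range, and the log2 difference was 0.30 (interval -0.18 to 0.78, adjusted p = 0.999). The mdx effect was larger in leg muscle by a log2 difference of 2.20 (adjusted p = 0.000176).

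Timp1 also differed between the muscles in both genotypes, in opposite directions. In mdx mice it was 2.41-fold higher in leg muscle than in EOM (3049 ± 756 and 1242 ± 155, SD, n = 5 each, adjusted p = 0.000400), with no overlap. In control mice it was lower in leg muscle, at 579 ± 281 against 1013 ± 129 in EOM, a log2 difference of -0.93 (adjusted p = 0.00712), and the array ranges overlapped. The order of levels was mdx leg muscle, mdx EOM, control EOM and control leg muscle, with mdx and control EOM not differing beyond their spread.

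Timp2 inhibits metalloproteinases and also takes part in activating the Mmp2 precursor through Mmp14. The gene lies at chr11:118301061-118355411 on the minus strand (GRCm38.p6). Probe set 93507_at gave 917, 1211, 1669, 1276 and 997 in mdx leg muscle, against 354, 938, 966, 663 and 781 in control leg muscle. The groups overlapped, as mdx array 1 lay under control arrays 2 and 3. The log2 difference was 0.76 (interval 0.30 to 1.23, 1.70-fold, adjusted p = 0.0193). The call rested on single arrays. Without control leg array 1 the log2 difference was 0.52 (adjusted p = 0.0530), without mdx leg array 3 it was 0.64 (adjusted p = 0.0666), and without control leg arrays 1 and 4 it was 0.41 (adjusted p = 0.169). In EOM it averaged 851 ± 171 in mdx mice and 907 ± 114 in control mice, a log2 difference of -0.11 (interval -0.57 to 0.36, adjusted p = 0.999). The difference between the muscles in the mdx effect, 0.87 (interval 0.21 to 1.53), missed the threshold (adjusted p = 0.123). The second probe set, 93508_at, was under the floor on all 20 arrays and cannot show a difference, so the 2 Timp2 probe sets disagree in what they detect.

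**Figure D4:**
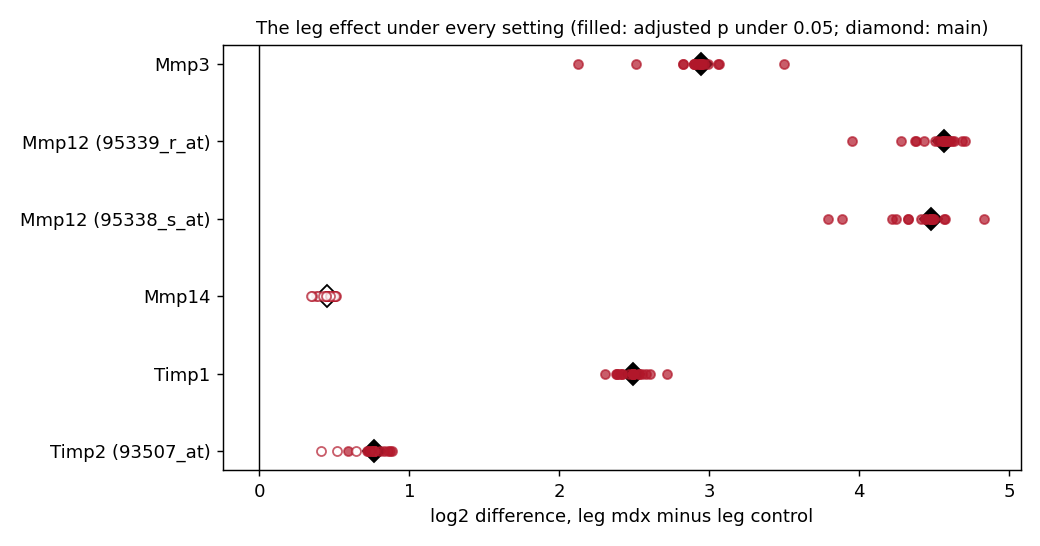
Log2 difference between mdx and control leg muscle for each tested member probe set under the settings of processing that were tried, with a diamond for the reported value and filled symbols where the adjusted p is under 0.05. Timp2 is filled in 17 of 21 alternatives and open in 4, whose values run from 0.41 to 0.76, Mmp14 is open throughout, and the others are filled throughout.

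Between the 2 muscles of control mice, 2 of the 6 tested member probe sets, Mmp3 and Timp1, were called lower in leg muscle than in EOM, where 10.3% of all tested probe sets were. Between the muscles of mdx mice, 3 of the 6, both Mmp12 probe sets and Timp1, were called higher in leg muscle, against 8.83% of all, and 0 lower, against 9.24%. The same 3 had all mdx leg arrays above all mdx EOM arrays, which 7.02% of tested probe sets did. Of these, 95338_s_at passed the filter only through the mdx leg arrays, in which it was high. Its place in both counts was thus partly fixed by the filter. Mmp12 was 7.47-fold higher in mdx leg muscle than in mdx EOM by 95339_r_at (adjusted p = 2.10e-05) and 14.8-fold higher by 95338_s_at (adjusted p = 9.64e-08). In control mice neither Mmp12 probe set differed between the muscles past the threshold (log2 -0.32, adjusted p = 0.669, and -0.34, adjusted p = 0.592). Mmp14 and Timp2 did not pass between mdx muscles (log2 0.60, adjusted p = 0.121, and 0.50, adjusted p = 0.130), although Mmp14 did without mdx EOM array 4 (log2 0.82, adjusted p = 0.0230) and Timp2 did without control leg arrays 1 and 4 (adjusted p = 0.0344). Some gland and epithelial markers also differed between the muscles. The summed signal of 8 such markers ran from 1412 to 1970 in mdx leg muscle, against 4515 to 5954 in mdx EOM. It ran from 1620 to 10738 in control leg muscle, with a median of 1834 and the highest value on array 4, against 5098 to 6283 in control EOM. Of 4 tested, 2 were called lower in leg muscle than in EOM in mdx mice (3 without control leg arrays 1 and 4) and 1 in control mice (2 without them). Bpifa2 averaged 253 ± 63.7 in mdx leg muscle and 3834 ± 492 in mdx EOM (SD, n = 5 each, 15.5-fold lower in leg, adjusted p = 0.000495), and it was 8.35-fold lower in control leg muscle than in control EOM (adjusted p = 0.00524). Most of the summed signal in EOM came from Bpifa2. Amy1 was also called lower in mdx leg muscle than in mdx EOM (limma, adjusted p = 0.0240), and Ltf was lower without passing (adjusted p = 0.0757). Cdh1 went the other way, at 769 in mdx leg muscle and 659 in mdx EOM, and did not pass (adjusted p = 0.563). The part of gland transcript in the differences between muscles was not tested. Comparisons that share a group of arrays, such as these and the genotype comparisons, are not independent of each other.

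Macrophage markers moved with the leg results. All 10 tested markers of 12 were called higher in mdx than in control leg muscle, against 10.7% of all tested probe sets. The markers had a median log2 difference of 3.38. Their summed signal ran from 30358 to 37682 in mdx leg muscle, with a median of 35426, against 3082 to 4338 in control leg muscle, with a median of 3559. In EOM 1 of 10, the protease Ctss, was called higher, where 0.0416% of all tested probe sets were. The macrophage sum in EOM ran from 5519 to 10018 in mdx mice and from 4946 to 6309 in control mice. The macrophage receptor Marco was under the floor on every array outside mdx leg muscle, and Cd53 was under it on every control EOM array. In control mice 3 of the 10 markers were called lower in leg muscle than in EOM and 0 higher, and 2 were lower without control leg arrays 1 and 4. Over all tested probe sets, 10.3% were called lower in that comparison with all arrays. In whole muscle, more cells of a type and more RNA per cell cannot be told apart, and the part of macrophage content in the member results was not tested.

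**Figure D5:**
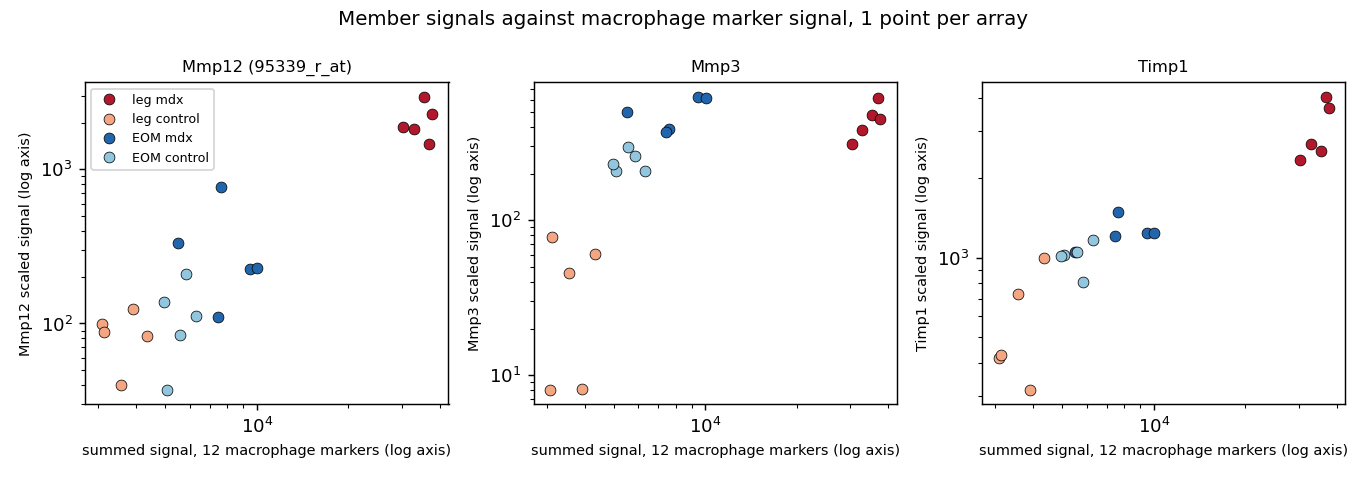
Scaled signal of Mmp12 (95339_r_at), Mmp3 and Timp1 against the summed signal of 12 macrophage markers (both axes log), 1 point per array for the 20 arrays of 4 groups. The mdx leg arrays, with sums from 30358 to 37682, stand far to the right of all others, and for Mmp3 the mdx EOM arrays are as high as the mdx leg arrays at sums of at most 10018.

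Fibroblast markers moved less. Of 10 tested, 8 were called higher in mdx than in control leg muscle, 6 without control leg arrays 1 and 4, and 0 in EOM. Their summed signal ran from 40366 to 46229 in mdx leg muscle, against 23983 to 29107 in control leg muscle. It ran from 27697 to 39264 in mdx EOM and from 24474 to 42976 in control EOM. Of 4 tested neutrophil markers 1 was called higher in mdx leg muscle, and of 8 endothelial markers 0 were higher and 1 was lower, or 0 without control leg arrays 1 and 4. For each marker list here, the shares over all tested probe sets in leg muscle were 10.7% higher and 7.15% lower. Of 6 satellite cell and myoblast markers 2 were called higher in mdx leg muscle, with and without those arrays, and 0 in EOM. They were Myog, a transcription factor of differentiating myoblasts (2.91-fold, adjusted p = 0.000443), and Ncam1, an adhesion molecule (1.67-fold, adjusted p = 0.000255). The summed signal of the 6 ran from 4936 to 5111 in mdx leg muscle, against 2611 to 3675 in control leg muscle, with no overlap. It ran from 3344 to 4172 in mdx EOM and from 3062 to 3698 in control EOM. The part of these cells in the member results was not tested.

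The tested members differed in which genes they followed across the 20 arrays. The patterns most like that of Mmp12 were those of Ctss (Pearson r = 0.92), a lysosomal protease of macrophages, Laptm5 (0.91) and S100a4 (0.90). Those most like Timp1 were Tubb5 (0.94), C3ar1 (0.93) and Ctsz (0.93). For Mmp3 they were Sh3bgrl (0.94), Wdr92 (0.93) and Actn1 (0.92). For Timp2 they were Pdia6 (0.90), Adcy7 (0.90) and the collagen gene Col6a2 (0.87). For Mmp14 the closest, Isoc1, reached 0.70. These values describe arrays that share their groups: after group means were removed, r was -0.05 for Mmp12 with Ctss, 0.58 for Timp1 with Tubb5 and 0.69 for Mmp3 with Sh3bgrl, but 0.86 for Timp2 with Pdia6. Among the members themselves Mmp12 and Timp1 had r = 0.80 over the arrays and -0.24 within groups, and Mmp3 and Timp2 had 0.54 and 0.55.

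The other metalloproteinases of the family were dim. Of 18 further genes 7 had a probe set and 0 passed the filter, with Mmp7, Mmp8, Mmp10, Mmp11, Mmp13 and Mmp16 under 200 on all arrays and Mmp17 above it on 3. Of 4 further inhibitors 2 were tested. Serpina3n, a secreted inhibitor of serine proteases, averaged 2190 ± 678 in mdx leg muscle and 602 ± 146 in control leg muscle (SD, n = 5 each) and rose 3.57-fold (adjusted p = 0.00201). Reck, a membrane-anchored inhibitor of metalloproteinases, had a log2 difference of 0.76 in leg muscle that did not pass (adjusted p = 0.277).

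Of 9 tested ADAM and ADAMTS proteases, the related membrane-bound and secreted metalloproteinases, 3 were called higher in mdx leg muscle and 0 lower, with a median log2 difference of -0.17, and 2 were called without control leg arrays 1 and 4. For this list and the next, the shares over all tested probe sets were 10.7% higher and 7.15% lower. Adam19 averaged 324 ± 36.6 in mdx leg muscle and 123 ± 89.1 in control leg muscle, 2.97-fold higher in geometric means with 1 control array set to the floor (adjusted p = 0.00166). Adam10, the main sheddase of Notch receptors, was 2.03-fold higher (adjusted p = 0.00418), and Adam9 was 1.42-fold higher (adjusted p = 0.0361). Of 12 tested activators, plasmin system genes and partners, 2 were called higher in mdx leg muscle and 0 lower, with a median of 0.15, and 1 without the same arrays. They were Lrp1, a receptor that clears metalloproteinases from the cell surface (1.66-fold, adjusted p = 0.00161), and the integrin Itgav (1.41-fold, adjusted p = 0.00675). Plat, tissue plasminogen activator, was lower in leg muscle than in EOM in mdx mice (log2 -1.13, adjusted p = 0.0126) and in control mice (log2 -1.52, adjusted p = 0.00129).

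Of 14 tested cytokines and transcription factors known to act on metalloproteinase genes, 1 was called higher in mdx leg muscle and 0 lower, with a median of 0.07. Over all tested probe sets, 10.7% were called higher there and 7.15% lower, so the count of 1 does not stand out. The gene called was Junb, an AP-1 subunit, at 414 ± 162 in mdx leg muscle and 99.8 ± 44.5 in control leg muscle. It was at least 4.12-fold higher (adjusted p = 0.000722). Without control leg arrays 1 and 4 the count was 2. With all arrays, the other tested AP-1 subunits Jun, Jund, Fosb and Fosl2 did not pass (log2 -0.50, 0.47, 0.02 and -0.20). The Junb probe set carries the suffix for relaxed design rules. Its mdx effect did not differ between the muscles past the threshold (log2 1.65, limma, adjusted p = 0.0925). In EOM 0 of the genes in the inhibitor, ADAM, activator, cytokine and substrate lists were called.

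Transcripts of matrix proteins that metalloproteinases cut were called higher in mdx leg muscle for 16 of 23 tested genes and lower for 0. Over all tested probe sets the shares were 10.7% and 7.15%. The list was chosen with earlier results of these data known, so these shares are no test of it as a set. The median log2 difference of the 23 was 0.92, and 13 of 23 were called higher without control leg arrays 1 and 4. The proteoglycan Bgn was 4.45-fold higher (adjusted p = 1.85e-07), Col5a2 was 5.49-fold higher (adjusted p = 1.18e-05), Tnc, tenascin C, was 4.67-fold higher (adjusted p = 3.10e-05) and Col6a3 was 2.75-fold higher (adjusted p = 1.05e-05). In EOM 0 of 23 were called, and for 11 of 23 the mdx effect was called larger in leg muscle, or 8 of 23 without control leg arrays 1 and 4. Over all tested probe sets, that share was 4.93% with all arrays. Between muscles of control mice 8 of 23 were called lower in leg muscle than in EOM and 0 higher, among them Eln, elastin, at 1948 ± 374 in leg and 6162 ± 1493 in EOM (SD, n = 5 each, log2 -1.64, adjusted p = 8.47e-07). Without control leg arrays 1 and 4 that count was 5. Over all tested probe sets, 10.3% were called lower in that comparison with all arrays. Dcn, Lum, Col1a1, Col1a2 and Col3a1 are in this list and among the fibroblast markers, so the counts of these lists share genes.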

How the data were processed

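Total RNA of 20 samples was hybridised to one-colour Affymetrix arrays. The values the authors deposited are intensities on a linear scale, 1 for each probe set on each array. No source used here gives the software that summarised them. The deposited intensities run from 0.4 to 95476.8 and have a 2% trimmed mean of about 1500 on each array (1500.1). Every value column was mapped to a sample by its label.

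A single factor per array brought the 2% trimmed mean over 12588 non-control probe sets to 500. Lower values were raised to a floor of 50 before taking log2. Signals are means ± SD of scaled values before the floor, and folds come from the log2 values. Folds are ratios of geometric means after the floor. They understate the ratio of geometric means if an array of the lower group was at the floor, and most such folds are written as at least, yet they can exceed the ratio of the printed means. Testing covered 7204 probe sets with a signal of 200 or more on 5 or more arrays, in limma 3.58.1 under R 4.3.3 (a linear model with eBayes moderation and its trend option, 20 arrays as 4 groups, 16 residual degrees of freedom). There were 5 contrasts, with Benjamini-Hochberg adjustment over all tested probe sets within each and a call at an adjusted p under 0.05. The number of arrays limits the precision. The fit was also run on simulated arrays of independent normal values. These held no batch, odd array or correlation between probe sets, so that run says nothing about such features of the data.

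By the platform annotation, 10298 probe sets had 1 symbol, 363 had several, and 1993 were missing. Named genes are all members, the 3 genes most correlated with each tested member, Dmd, and up to 4 genes per list and contrast with the smallest adjusted p among those called. Genes shown for other reasons, such as Reck and Mmp13, were named after their values were seen. In the lists each gene is represented by its brightest tested probe set. Members and lists were chosen with earlier results of these data known. Alternatives changed the normalization, floor, pseudocount, filter, trend, weights, replicate block and arrays.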

Additional observations from a re-analysis of the deposited data

Results flagged for a closer look

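In 4 of the 36 sets of 5 arrays examined, 1 array lay far from the other 4 by Dixon's criterion, which chance meets in about 1 in 20 sets. They were mdx leg array 5 for Mmp2, at 93.7, mdx EOM array 5 for the Mmp12 probe set 95338_s_at, at 226, control leg array 3 for the same probe set, at 203, and control EOM array 2 for Timp2, at 709.

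The mdx effect differed between leg muscle and EOM, tested directly in limma, for 4 member probe sets. The log2 difference of the 2 effects, leg minus EOM, was 1.91 for Mmp3, 3.22 and 4.23 for the 2 Mmp12 probe sets and 2.20 for Timp1. The macrophage sum and the satellite cell and myoblast sum were also higher on every mdx leg array than on any array of the other groups. The fibroblast sum had its highest median in mdx leg muscle, at 41050, and its range overlapped that of control EOM. Mmp3 averaged 448 in mdx leg muscle and 501 in mdx EOM, at macrophage sums of at least 30358 and at most 10018. The part of these cells was not tested.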

How the results depend on the processing

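The 5 member probe sets called in leg muscle include Timp2, whose call was lost in 4 of 21 alternatives: without control leg array 1, without mdx leg array 3, without control leg arrays 1 and 4, and with only the compared groups in the fit (adjusted p = 0.0667). The leg calls of Mmp3, Mmp12 and Timp1 were kept under every alternative run, with log2 values from 2.13 to 3.50 for Mmp3, 3.95 to 4.70 and 3.79 to 4.84 for the Mmp12 probe sets, and 2.31 to 2.72 for Timp1. In EOM the count of called members was 1, Mmp3, with a floor of 100, with no intensity trend and with array weights (adjusted p = 0.0275, 0.0488 and 0.0417), against 0 as reported, and its cause was not tested. Over all probe sets the EOM count of 6 was 11 with a floor of 100 and with array weights, 3 without the filter, and 3 to 11 without single arrays. Between control muscles the member count was 1 with a filter at 500, against 2, since Mmp3 is not tested there. Between mdx muscles Timp2 passed with array weights (adjusted p = 0.0159) and without control leg arrays 1 and 4 (adjusted p = 0.0344). No reported log2 difference that was called changed sign. With the replicate block, all 30 member results kept their side of the threshold, and 5 member probe sets were called in leg muscle. Whether the replicate numbers pair the arrays cannot be told from the values here, since differently numbered arrays were not compared. Same-numbered deviations had r from -0.08 to 0.23 over 30 pairs, and 4 were over 0.1. Those 4 were all between mdx and control arrays of the same muscle. Signals near the floor limit Mmp2, Mmp9 and the control leg level of Mmp3.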

Other observations

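Mmp13, a collagenase gene in the same chromosome 9 cluster as Mmp3 and Mmp12 (chr9:7272514-7283333, GRCm38.p6), reached a signal of 200 on no array. It was singled out after its values were seen. It averaged 170 ± 23.6 in mdx leg muscle and 68.1 ± 32.8 in control leg muscle (SD, n = 5 each), with arrays from 136 to 199.6 and from 25.7 to 100.2. It averaged 79.1 ± 29.1 in mdx EOM and 66.5 ± 30.3 in control EOM. In the limma fit without the filter, read for this gene after seeing the data, it was at least 2.38-fold higher in mdx than in control leg muscle (adjusted p = 0.00525). That fit called 1263 of 11981 probe sets in leg muscle. The EOM difference was 0.19 on the log2 scale (adjusted p = 1). The difference of the 2 effects was 1.07 and did not pass (adjusted p = 0.190). The other genes of the cluster with a probe set, Mmp7, Mmp8 and Mmp10, were below a signal of 100 on every array.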
